A study of Rattus norvegicus with 30 samples.

Results

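The comparison SR vs. CT sets rats that took methamphetamine (METH) and kept pressing for it under punishment against rats that never received METH or foot-shocks. It used 14 of the 30 RNA sequencing libraries of the study, namely the 7 whose titles begin with SR and the 7 whose titles begin with CT, with 1 library per rat. All were adult wild type male Sprague Dawley rats. CT rats self-administered saline over 21 days and through the 8 days of the foot-shock phase without being shocked. SR (METH Shock Resistant) rats self-administered METH on the same days, and during the foot-shock phase part of their presses on the active lever were followed by a shock. They were assigned to this group because they went on pressing. SR rats therefore differed from CT rats in both the drug and the shocks, and these cannot be told apart in this comparison. The other 16 rats were 6 SS (METH Shock Sensitive) rats, which cut down their pressing, and 5 YSR and 5 YSS rats, which took saline and received the shocks of an SR or SS rat. Their libraries helped to estimate the spread between rats and are given beside some genes.

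METH enters monoamine terminals and drives the release of dopamine and noradrenaline. The hippocampus, which serves learning, memory and the recall of context, receives such fibres and holds receptors for both transmitters as well as for the stress hormones that a foot-shock releases. The study asked which hippocampal transcripts differ in rats that take the drug compulsively. The study's methods describe whole hippocampus, whereas the tissue field of the deposited records names the dorsal striatum. The methods place the dissection immediately after the last session, and the protocol field some hours later. Genes are listed in the deposited tables by Ensembl identifier alone, and the symbols at hand could be matched to 0 of the 32552 identifiers. Marker genes of hippocampus, striatum or single cell types were therefore not looked up, and genes are given below by identifier, chromosome and position, without a function.

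Total counts lay between 16329258 and 18737037 in SR libraries and between 16224250 and 19404440 in CT libraries. The titles also carry a code, XII or XIII, taken here as the cohort of the rat. Cohort XII supplied 4 of the 7 SR libraries and 1 of the 7 CT libraries. The main counts of genes called and the fold changes of named genes in SR vs. CT are therefore given both ways. These are a fit with the group alone and a fit with the cohort as a covariate. Measures of single libraries were repeated within cohort XIII instead. DESeq2, Tukey's test and the comparisons of other groups used the group alone. Among the 42 pairs of libraries from the same group, chi-square divided by its degrees of freedom was 6.36 or more over 11946 genes, where sampling noise alone gives about 1, and each library was kept as a rat of its own. The titles hold a letter, L or R, and a number as well, which the labels do not explain. Beyond this nothing in the labels describes single rats. The p-values set a difference between groups against the spread between rats.

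At an unadjusted p-value under 0.05, 762 of 15797 genes tested were higher and 894 were lower in SR rats, which is 10.5% of the genes (4.82% higher and 5.66% lower). Once the cohort was a covariate, 526 passed as higher and 553 as lower, or 6.83% of the genes (3.33% and 3.5%). Both fits called 903 genes in the same direction, 433 of them higher (2.74%) and 470 lower (2.98%), together 5.72% of the genes. No gene passed a Benjamini-Hochberg adjusted p-value of 0.05 in either fit of edgeR's quasi-likelihood test. The smallest adjusted p was 0.129 with the group alone and 0.0575 with the cohort. DESeq2 on the same genes gave 1639 genes at the unadjusted threshold and 13 after adjustment, 5 of them higher in SR rats. In bulk tissue, a lower level may mean fewer cells of a type or less RNA per cell, and these cannot be told apart.

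Most of the differences were small. Among the 1656 genes called with the group alone, the median size of the log2 fold change was 0.19, with 10% of genes under 0.10 and 10% over 0.53. Of these genes, 1161 changed by less than 1.2-fold and 423 by 1.2-fold to 1.7-fold, and 72 (0.456% of the genes tested) reached 1.7-fold, 22 higher (0.139%) and 50 lower (0.317%) in SR rats. With the cohort as a covariate, 67 genes reached 1.7-fold, 23 of them higher. All 1656 genes kept their sign when the cohort was added. The plot of the 2 fits shows how closely the fold changes lay together. Both fits used the same 30 libraries, so that a kept sign is no independent support.

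**Figure D1:**
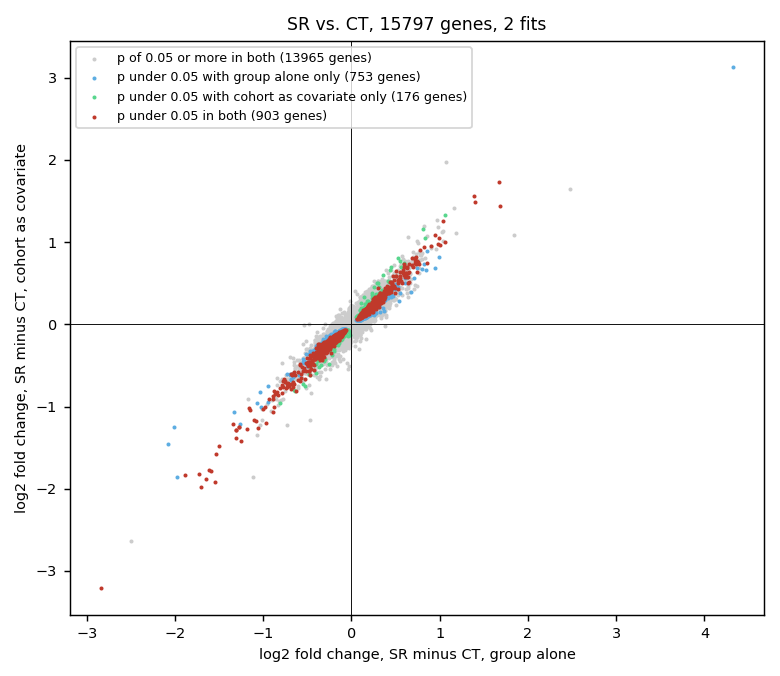
Each point is 1 of 15797 genes, with its log2 fold change (SR minus CT) from the fit with group alone on the x axis and from the fit with cohort as a covariate on the y axis. The 903 genes in red had an unadjusted p under 0.05 in both fits, and all of them lie in the quadrants where both fits give the same sign.

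The named genes below are the 6 higher and the 6 lower with the smallest p-value among the 903. The highest-ranked gene that was higher in SR rats was ENSRNOG00000014900, on chromosome 17 from 57031766 to 57090888. CT rats had 12.7 to 15.3 CPM (median 13.3) and SR rats had 14.7 to 19.5 CPM (median 17.1). All but 1 of the SR rats lay above every CT rat. The log2 fold change was 0.33 (standard error 0.06, unadjusted p = 1.26e-05, adjusted p = 0.129), and it was 0.30 (standard error 0.06, unadjusted p = 8.18e-05) with the cohort. The median was 13.6 CPM in SS, 14.7 in YSR and 15.9 in YSS rats.

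ENSRNOG00000013981, on chromosome 1 from 103197915 to 103256823, was the most abundant of the 12. It had 172 to 192 CPM in CT rats (median 187) and 202 to 234 CPM in SR rats (median 209). The groups did not overlap. Every SR rat was higher although the difference was only 1.15-fold (log2 fold change 0.20, standard error 0.04, unadjusted p = 2.77e-05, adjusted p = 0.129), and it was 0.17 (unadjusted p = 0.000161) with the cohort. Relative to CT rats, the log2 fold change was 0.12 in SS, 0.11 in YSR and 0.01 in YSS rats (unadjusted p = 0.00775, 0.0177 and 0.748).

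ENSRNOG00000060635 was the gene with the smallest p-value once the cohort was included. It lies on chromosome 3 from 83052724 to 83134363, on the minus strand, and has 839 exonic bases in 4 blocks. CT rats had 2.65 to 3.68 CPM (median 3.22) and SR rats had 3.35 to 5.98 CPM (median 4.92). A single SR rat, XII-R05, was within the range of the CT rats. This gave a log2 fold change of 0.59 (standard error 0.13, unadjusted p = 6.31e-05, adjusted p = 0.138), and one of 0.70 (standard error 0.12, unadjusted p = 3.64e-06, adjusted p = 0.0575) with the cohort. Within cohort XIII it was also 0.70 (unadjusted p = 0.000201). The median was 3.87 CPM in SS, 2.86 in YSR and 2.59 in YSS rats.

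ENSRNOG00000009867 (chromosome 6 from 109913757) had 14.2 to 18.4 CPM in CT rats and 17.9 to 25.05 in SR rats. Both SR rats that overlapped the CT rats were of cohort XIII, and the log2 fold change was 0.37 with the group alone (unadjusted p = 7.45e-05), 0.34 with the cohort (unadjusted p = 0.000371) and 0.19 within cohort XIII (unadjusted p = 0.0737). ENSRNOG00000019590 (chromosome 2 from 187708234) showed a narrow spread, with 90.3 to 95.5 CPM in CT rats and 93.4 to 114 in SR rats. Its log2 fold change was 0.16 (unadjusted p = 8.00e-05), 0.13 with the cohort (unadjusted p = 0.000516) and 0.09 within cohort XIII (unadjusted p = 0.0531).

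ENSRNOG00000001289, on chromosome 12 from 17277635 to 17380494, differed more within cohort XIII than over all rats. The CT rats of cohort XIII had 14.6 to 15.9 CPM, and the CT rat of cohort XII stood apart at 19.1 CPM. SR rats had 16.7 to 25.03 CPM (median 20.3). Over all rats the log2 fold change was 0.41 (standard error 0.10, unadjusted p = 0.000223), 0.43 with the cohort (unadjusted p = 0.000228) and 0.62 within cohort XIII (standard error 0.09, adjusted p = 0.0132). Medians in SS (18.8 CPM), YSR (18.9) and YSS rats (19.4) lay between those of CT (15.2) and SR rats.

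Among the genes lower in SR rats, ENSRNOG00000033479 on chromosome 18 (30587872 to 30590789) had the smallest p-value and the largest fold change of these 12. It is a gene of 1 exon block and 2918 bases. CT rats had 2.21 to 3.74 CPM (median 3.01, 40 to 61 counts) and SR rats had 1.06 to 2.18 CPM (median 1.45, 18 to 37 counts). All SR rats lay below all CT rats. Its level was 1.83-fold lower (log2 fold change -0.87, standard error 0.17, unadjusted p = 2.02e-05, adjusted p = 0.129), with a log2 fold change of -0.85 with the cohort (unadjusted p = 9.05e-05) and -1.04 within cohort XIII (unadjusted p = 0.000111). SS, YSR and YSS rats had medians of 2.52, 1.98 and 2.16 CPM.

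This gene sits in a run of single-block genes on chromosome 18, and its neighbourhood was examined because of it. Between 30375798 and 30906924, 32 single-block genes were tested, with a mean of 1.38 to 18.4 CPM. Of the 31 other than ENSRNOG00000033479, 25 had a log2 fold change below 0, where 568 of all 1033 single-block genes did. The 31 had a median of -0.14 (-0.15 with the cohort), where the median of all 1033 single-block genes was -0.02 in both fits. At the unadjusted threshold 4 of the 31 were lower in SR rats (12.9%) and 0 were higher, where 5.42% of all single-block genes were lower. With the cohort, 3 were lower (9.68%) and 1 was higher, where 3.78% of all single-block genes were lower. Of all genes tested on chromosome 18, 8.57% were lower (5.95% with the cohort). The 32 lie side by side and resemble each other in structure, so that reads may be shared among near copies, and how the counting treated such reads is not given in the sources used here.

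ENSRNOG00000004158 and ENSRNOG00000028097 are long genes that were lower in SR rats by about the same factor. ENSRNOG00000004158 (chromosome 6 from 53488883 to 54059119, 27 exon blocks) had 24.8 to 33.3 CPM in CT rats and 17.0 to 25.6 CPM in SR rats, a log2 fold change of -0.41 (standard error 0.08, unadjusted p = 4.07e-05) and -0.37 with the cohort (unadjusted p = 0.000236). ENSRNOG00000028097 (chromosome 2 from 115678344 to 115788687) had 57.6 to 78.6 CPM in CT rats and 43.8 to 60.7 in SR rats. This was a log2 fold change of -0.40 (standard error 0.08, unadjusted p = 4.10e-05) and -0.34 with the cohort (unadjusted p = 0.000254). In both genes 5 of the 7 SR rats lay below every CT rat. SS, YSR and YSS rats were lower than CT rats as well. Their log2 fold changes were -0.10, -0.15 and -0.20 for ENSRNOG00000004158 (unadjusted p = 0.241, 0.105 and 0.0394). For ENSRNOG00000028097 they were -0.16, -0.26 and -0.19 (unadjusted p = 0.067, 0.00762 and 0.0505).

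ENSRNOG00000002413, on chromosome X from 139354155 to 139464798, had 31.9 to 36.6 CPM in CT rats (median 34.9) and 26.4 to 31.9 CPM in SR rats (median 28.9). All but 1 of the SR rats were below every CT rat. The log2 fold change was -0.25 (standard error 0.05, unadjusted p = 6.12e-05, adjusted p = 0.138) and -0.24 with the cohort (unadjusted p = 0.000269). The medians of the shocked saline rats were 34.7 CPM (YSR) and 33.1 CPM (YSS), and that of SS rats was 32.8.

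ENSRNOG00000000802 (chromosome 20 from 37465278 to 37700937) has 40 exon blocks. Its level was 6.45 to 10.01 CPM in CT rats and 5.29 to 6.75 CPM in SR rats, with a log2 fold change of -0.43 (unadjusted p = 8.75e-05) and -0.40 with the cohort (unadjusted p = 0.000382). SS, YSR and YSS rats were also lower than CT rats, with log2 fold changes of -0.21, -0.24 and -0.26 (unadjusted p = 0.0385, 0.027 and 0.0183). ENSRNOG00000005177 (chromosome 13 from 75105615) was low in all rats but separated the groups fully, with 2.68 to 3.10 CPM in CT rats (47 to 59 counts) and 1.59 to 2.53 CPM in SR rats (27 to 46 counts). Here the log2 fold change was -0.57 (standard error 0.13, unadjusted p = 0.000103) and -0.60 with the cohort (unadjusted p = 8.34e-05). None of the 12 genes shares exon bases with another annotated gene.

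**Figure D2:**
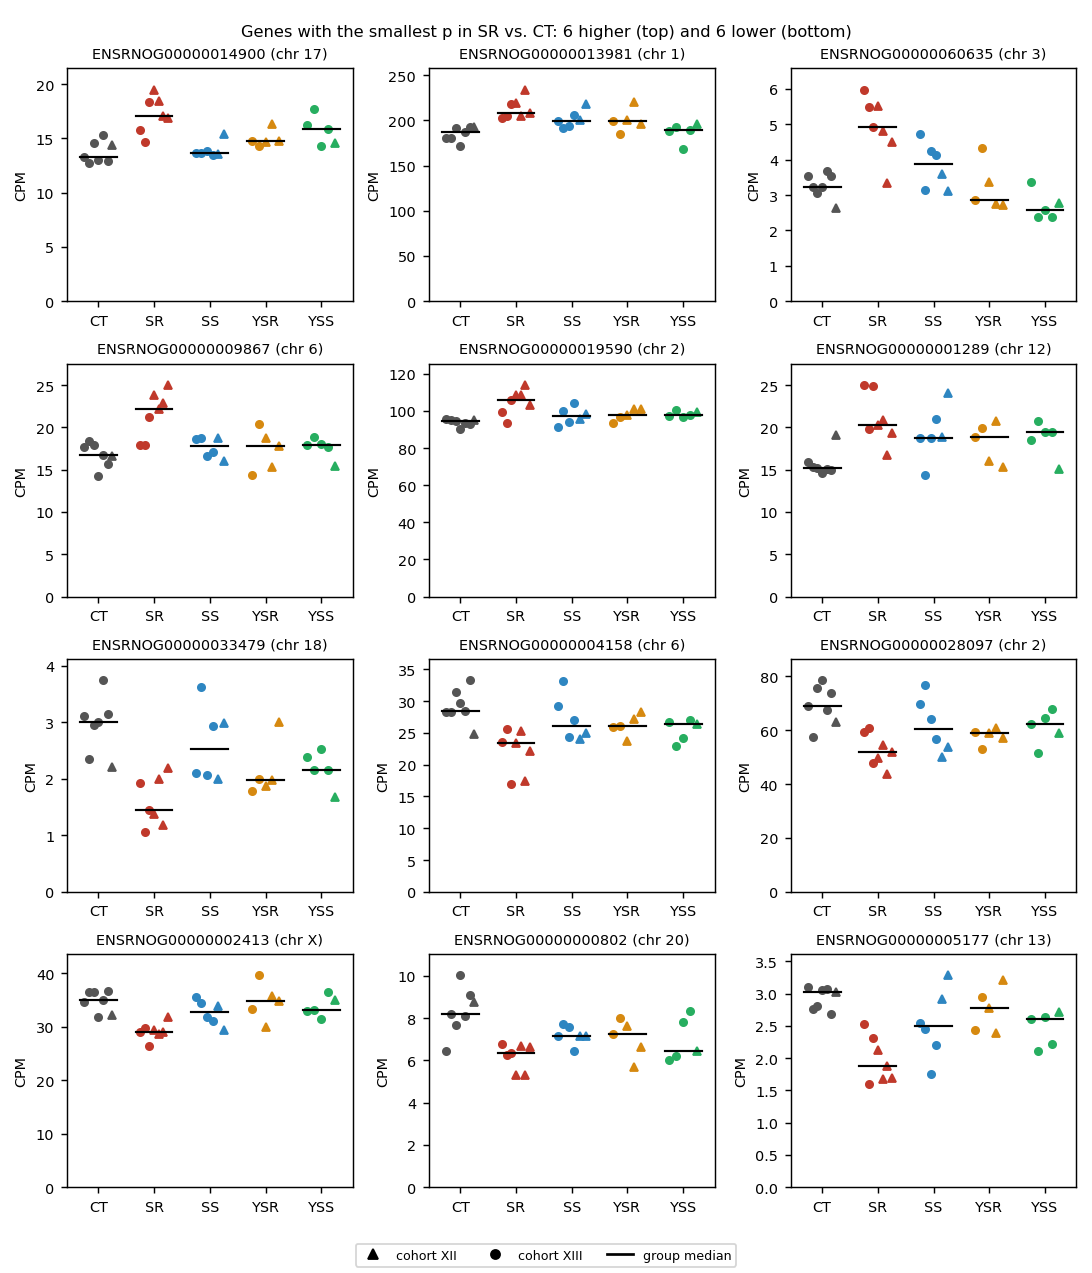
CPM of the 6 higher (2 upper rows) and 6 lower genes (2 lower rows) with the smallest p-value in SR vs. CT, for each rat of the 5 groups (triangles, cohort XII, circles, cohort XIII, line, group median). SR rats do not overlap CT rats in ENSRNOG00000013981, ENSRNOG00000033479 and ENSRNOG00000005177, and overlap by 1 or more rats in the other 9.

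Over all genes tested, the 7 SR and 7 CT rats did not overlap for 22 genes (0.139%), 7 with every SR rat above (0.0443%) and 15 with every SR rat below (0.095%). Both fits called 20 of these 22. DESeq2's 13 adjusted genes held 10 of the 12 genes described above. With SR replicate XIII-R07 left out, edgeR's quasi-likelihood test gave 10 genes after adjustment, of which 6 were among the 12 and 7 among DESeq2's 13. With any other SR or CT library left out it gave 0. The 12 were chosen by their p-values in these same counts, so that these overlaps are no independent support.

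The genes with the largest fold change were chosen among those called in both fits with at least 10 counts in every SR and CT library, 3 per direction. The gene with the largest fold change was ENSRNOG00000005659, on chromosome 10 from 55626741 to 55634991. CT rats had 3.07 to 14.8 CPM (median 10.7) and SR rats had 1.81 to 4.02 CPM (median 2.25). Of the CT rats, 3 lay under 6 CPM and 4 over 10 CPM, and no SR rat reached the higher level. Its level was 3.30-fold lower in SR rats (log2 fold change -1.72, standard error 0.44, unadjusted p = 0.000455, adjusted p = 0.256), with a log2 fold change of -1.82 (unadjusted p = 0.000363) with the cohort and -1.38 within cohort XIII (unadjusted p = 0.0239). The median was 10.2 CPM in SS rats, 2.74 in YSR and 4.26 in YSS rats.

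ENSRNOG00000013704 (chromosome 9 from 74124016) had 5.78 to 12.8 CPM in CT rats. SR rats lay at 2 separate levels. The 3 SR rats with the letter L in the title had 7.57, 8.69 and 9.44 CPM, within the CT range, and the 4 with the letter R had 0.882, 1.21, 1.74 and 1.83 CPM. The log2 fold change of -1.10 (standard error 0.35, unadjusted p = 0.00373, and -1.17 with the cohort, unadjusted p = 0.0039) is thus an average over 2 levels. In the other groups all rats were at the lower level. They had 1.05 to 2.81 CPM in SS, 1.43 to 3.005 in YSR and 1.25 to 2.303 in YSS rats. SS and YSS rats held both letters, whereas all YSR rats had the letter R. Against the same CT rats the log2 fold changes were -2.28 in SS (adjusted p = 0.00488), -2.26 in YSR (adjusted p = 0.0133) and -2.38 in YSS rats (adjusted p = 0.00723). ENSRNOG00000002471 (chromosome 11 from 66585881) was split among the CT rats instead, with 4.40, 4.47 and 4.56 CPM in 3 of them and 1.19 to 1.66 CPM in the other 4. SR rats had 0.876 to 2.36 CPM. Its log2 fold change was -0.89 (unadjusted p = 0.0126), -0.87 with the cohort (unadjusted p = 0.0189) and -0.51 within cohort XIII (unadjusted p = 0.286).

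Of the 3 higher genes, ENSRNOG00000012886 was low but separated the groups except for 1 SR rat. This gene (chromosome 7 from 120580743) had 0.675 to 1.199 CPM in CT rats (11 to 21 counts) and 1.06 to 1.79 CPM in SR rats (18 to 31 counts). It differed by 0.73 on the log2 scale (standard error 0.20, unadjusted p = 0.000805) and 0.77 with the cohort (unadjusted p = 0.000934). YSR rats had a median of 1.47 CPM, close to the SR median of 1.48, while the medians of SS and YSS rats were 0.994 and 0.639.

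In ENSRNOG00000007830 (chromosome 4 from 168752133) 1 SR rat, XII-L05, had 50.7 CPM, whereas the other 6 had 6.94 to 19.6 and CT rats had 4.31 to 13.0 CPM. Its log2 fold change was 0.98 (unadjusted p = 0.00633, and 0.98 with the cohort, unadjusted p = 0.0112), and 0.46 without this rat (unadjusted p = 0.0973). Within cohort XIII, which does not hold this rat, it was 0.72 (unadjusted p = 0.0539), and YSR rats differed from the same CT rats by 0.82 (unadjusted p = 0.0302). ENSRNOG00000026953 (chromosome 2 from 219258347) was split by cohort. The 3 SR rats of cohort XIII had 34.7, 38.4 and 56.6 CPM, and the 4 of cohort XII had 6.69 to 18.3 CPM, where CT rats had 11.3 to 25.1 CPM. The log2 fold change was 0.72 over all rats (unadjusted p = 0.0259), 0.81 with the cohort (unadjusted p = 0.00824) and 1.54 within cohort XIII (adjusted p = 0.00403). Without SR XIII-L09 it was 0.39 (unadjusted p = 0.18), and the call was also lost without SR XIII-R07 (0.60) or XIII-R09 (0.63) or CT XIII-R06 or XIII-R11 (both 0.66), which makes 5 of 14 fits.

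**Figure D3:**
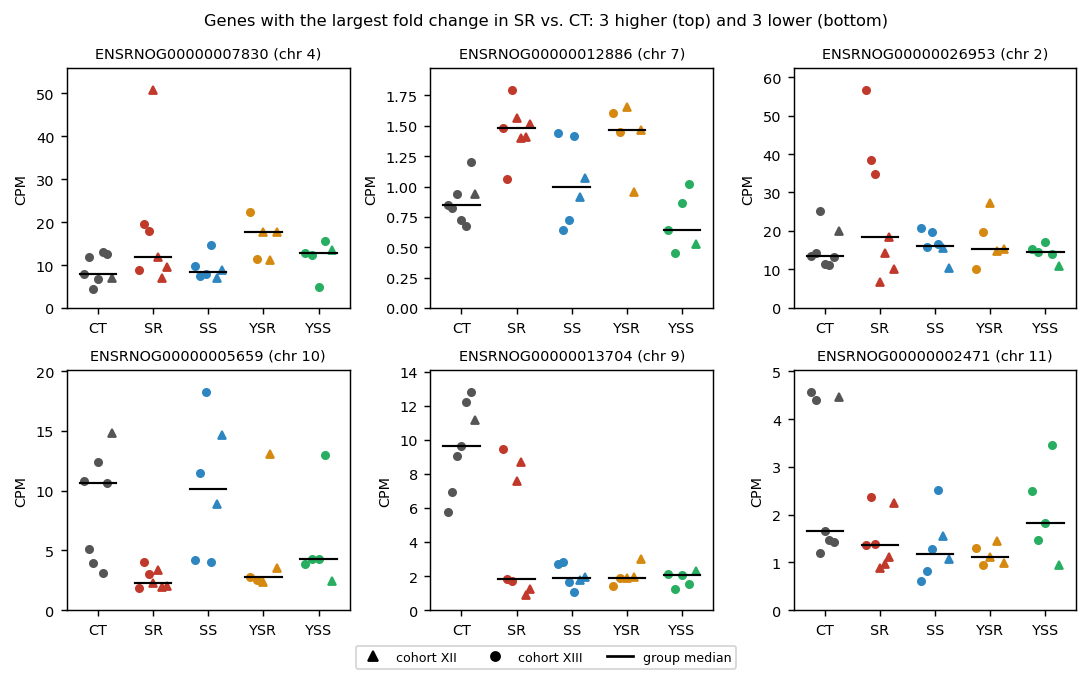
CPM of the 3 higher (upper row) and 3 lower genes (lower row) with the largest fold change in SR vs. CT, for each rat of the 5 groups (triangles, cohort XII, circles, cohort XIII, line, group median). A single SR rat at 50.7 CPM sets ENSRNOG00000007830 apart, the SR rats of ENSRNOG00000013704 lie at 2 levels, and those of ENSRNOG00000026953 separate by cohort.

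Cohort XIII alone holds 3 SR and 6 CT rats, and fits within it took the spread from all 19 libraries of that cohort. In SR vs. CT, 1160 of 16132 genes passed the unadjusted threshold (7.19%) and 4 passed after adjustment (0.0248%). They were ENSRNOG00000026953 and ENSRNOG00000001289, described above, and 2 genes named after their values were seen. ENSRNOG00000028404, on chromosome 10 from 86303727 to 86312762, had 83.8 to 98.6 CPM in the CT rats of cohort XIII and 130, 136 and 140 CPM in the SR rats of that cohort (log2 fold change 0.57, standard error 0.07, adjusted p = 0.00395). The SR rats of cohort XII had 90.7 to 128 CPM and the CT rat of cohort XII had 114 CPM. Over all rats the log2 fold change was 0.34 (unadjusted p = 0.000882, adjusted p = 0.281), and 0.35 with the cohort (unadjusted p = 0.00113). The fourth, ENSRNOG00000032882, belongs to the mitochondrial chromosome. Cohort XII holds 1 CT rat, so that no spread among its CT rats can be had and no fit was made within it.

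The mitochondrial genes formed 2 classes by length. The 13 genes of 204 to 1830 bases had log2 fold changes between -0.07 and 0.14, with a median of 0.05 (-0.01 with the cohort), and none passed the unadjusted threshold. Of 16 features of 64 to 75 bases, 13 were below 0. The 16 had a median log2 fold change of -0.13 (-0.16 with the cohort), where that of all genes tested was 0.003 (0.0005 with the cohort). Of the 16, 2 passed, both lower in SR rats (3 with the cohort), where 5.66% of all genes tested were lower (3.5% with the cohort). ENSRNOG00000032274 (positions 3835 to 3903) had 22.2 to 31.0 CPM in CT rats and 13.7 to 33.5 in SR rats (log2 fold change -0.31, unadjusted p = 0.023, and -0.40 with the cohort, unadjusted p = 0.00434). Its call was lost in 4 of 14 fits with a library left out, namely without SR XIII-R07 (-0.22), XIII-R09 (-0.26) or XII-R05 (-0.25) or CT XIII-L12 (-0.26). Against the same CT rats, the log2 fold change was -0.58 in SS, -0.40 in YSR and -0.50 in YSS rats (unadjusted p = 0.000159, 0.00854 and 0.0015). ENSRNOG00000029070 (positions 7693 to 7756) had 1.41 to 1.97 CPM in CT rats and 0.650 to 1.94 in SR rats (log2 fold change -0.53, unadjusted p = 0.0256, and -0.66 with the cohort, unadjusted p = 0.00714), and its call was lost without SR XIII-R07 (-0.42) or XII-R07 (-0.43). The other groups differed from CT rats by -0.90 (SS), -0.72 (YSR) and -0.77 (YSS) on the log2 scale. ENSRNOG00000032882 (positions 6865 to 6933, minus strand) had 50.4 to 65.8 CPM in CT rats, and 33.1, 38.1 and 43.4 CPM in the 3 SR rats of cohort XIII against 42.9 to 80.2 in the 4 of cohort XII. Its log2 fold change was -0.19 over all rats (unadjusted p = 0.122), -0.33 with the cohort (unadjusted p = 0.00695) and -0.59 within cohort XIII (adjusted p = 0.0236). This feature shares bases with a longer gene on the other strand, and whether the counting used the strand is not given in the sources used here.

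The shares of genes higher and lower differed by the length of the gene. When the 15797 genes were divided into 5 classes of nearly equal number by their span on the genome, 11.9% of the longest class (65809 bases or more, 3160 genes) were lower and 1.84% higher in SR rats. In the shortest class (5161 bases or less), 6.36% were higher and 3.32% lower. In the fit that included the cohort, the longest class had 6.27% lower and 1.52% higher, and the shortest 4.91% higher and 2.63% lower. Within cohort XIII alone, 177 genes of the longest class were lower and 103 higher, where 377 and 58 were so over all rats. The median log2 fold change per class went from 0.03 to -0.05 with the group alone and from 0.02 to -0.03 with the cohort, so that most long genes differed little. Classes by exonic length showed the same order, with 10.4% lower and 2.28% higher among the longest (3986 bases or more). With the cohort these were 5.54% and 1.71%. By mean CPM both shares were larger in the highest class (8.42% lower and 5.32% higher) than in the lowest (3.7% and 2.88%). With the cohort these were 4.34% and 3.16% in the highest class, and 3.16% and 2.53% in the lowest. By number of exon blocks the share lower went from 4.56% to 8.73% (3.32% to 4.11% with the cohort). The share higher went from 4.68% to 3.04% (3.45% to 2.53% with the cohort). Which of these traits the direction goes with was not tested.

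**Figure D4:**
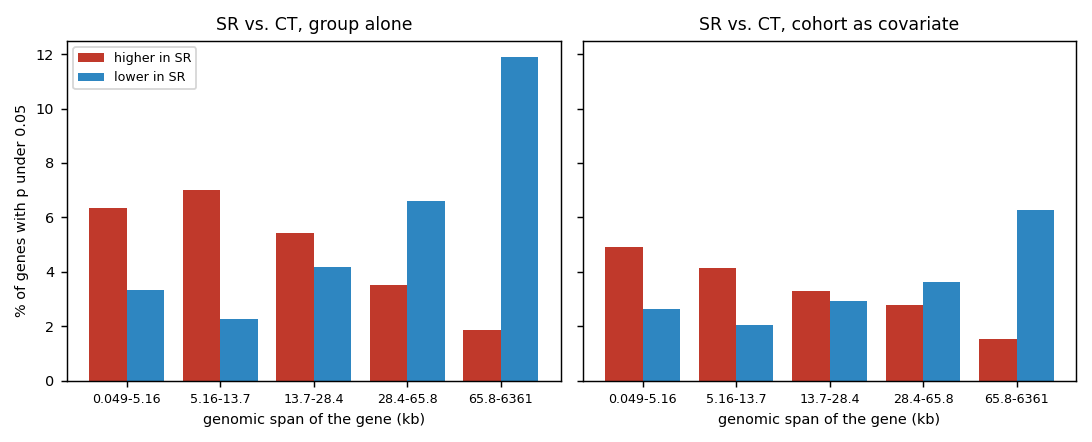
Share of genes (%) with an unadjusted p under 0.05 that were higher (red) or lower (blue) in SR rats, in 5 classes of genomic span (kb), from the fit with group alone (left) and with cohort as a covariate (right). The lower genes make up 11.9% of the longest class at left and 6.27% at right.

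The same contrast was measured in each library as the median log2 CPM of the longest class minus that of the shortest, each gene relative to its mean over the 30 libraries. It was between -0.005 and 0.107 in CT rats (median 0.02) and between -0.19 and 0.09 in SR rats (median -0.04), so that the groups overlapped. In the other groups the medians were -0.005 (SS), -0.03 (YSR) and 0.0004 (YSS). Their ranges were -0.11 to 0.14, -0.05 to 0.01 and -0.08 to 0.04. Between SR and CT rats the difference of -0.08 gave p = 0.0437 (exact two-sided permutation test, n = 7 and 7, adjusted over 8 measures 0.175). Within cohort XIII it was -0.04 (exact permutation test, p = 0.321). SR replicate XII-R05 was the lowest at -0.19. Without it the difference was -0.05 (exact permutation test, p = 0.0874), the lower genes of the longest class numbered 225 in place of 377, and 1178 genes in all passed the unadjusted threshold. Leaving out each of the 14 libraries in turn gave differences of -0.0968 to -0.0495, with exact permutation p-values of 0.00408 to 0.0944, of which 4 of 14 were under 0.05.

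The second principal component of log2 CPM, which held 7.79% of the variance, also separated most SR from CT rats. Scores were 5.53 to 19.5 in CT rats (median 10.3) and -19.5 to 14.9 in SR rats (median -3.84), with 6 of the 7 SR rats below every CT rat (exact two-sided permutation test, p = 0.00758, adjusted over 8 measures 0.0606). All 10 YSR and YSS rats scored below 0 as well, between -13.4 and -0.43, and SS rats ranged from -16.5 to 18.02. Within cohort XIII the difference was -8.91 against -14.7 over all rats (exact permutation test, p = 0.131, where 0.0238 is the smallest p possible). For the total count, the shares of mitochondrial and X-chromosomal counts and of the 10 most counted genes, the genes detected and PC1, the exact p-values were 0.191 to 0.578, and SR and CT rats overlapped.

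**Figure D5:**
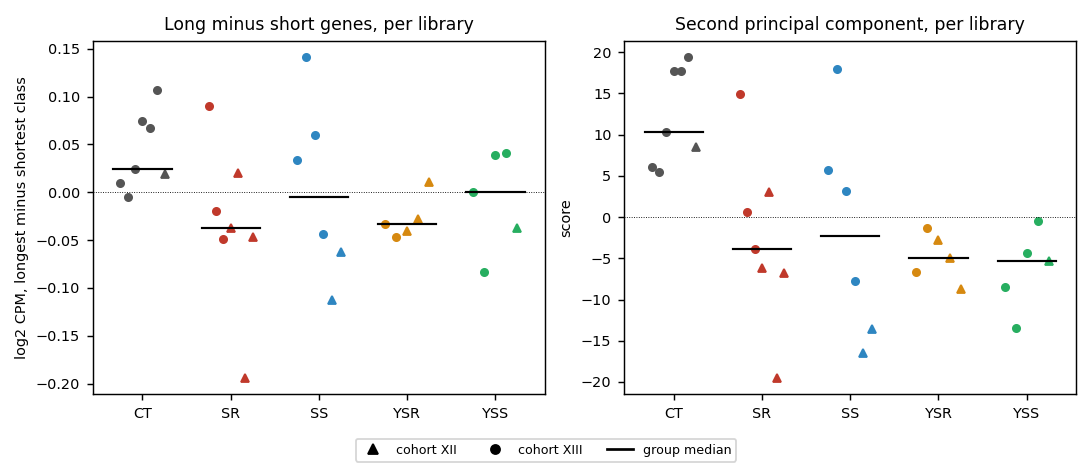
Left, median log2 CPM of the longest span class minus that of the shortest class, right, score on the second principal component, for each rat of the 5 groups (triangles, cohort XII, circles, cohort XIII, line, group median). SR replicate XII-R05 is the lowest of all rats in both panels, and 6 of 7 SR rats lie below the CT rats at right.

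Chromosomes differed in the share of genes called. Over all genes tested, 5.66% were lower and 4.82% higher in SR rats (3.5% and 3.33% with the cohort). On chromosome X, 8.24% of 546 genes were lower and 1.83% higher in SR rats (4.58% and 1.28% with the cohort), and on chromosome 18, 8.57% of 420 genes were lower and 2.62% higher (5.95% and 2.86% with the cohort). Similar shares were lower on chromosomes 15 (8.11%, 5.7% with the cohort), 2 (7.85%, 4.84%), 14 (7.84%, 3.53%) and 6 (7.55%, 5.31%). Higher genes outnumbered lower ones on chromosome 19, with 7.10% of 465 genes higher and 4.52% lower (4.09% and 3.01% with the cohort), and on chromosome 1, with 6.56% of 1983 genes higher and 4.49% lower (4.84% and 3.08%). Higher genes also outnumbered lower ones on chromosomes 10 (6.15% higher and 3.69% lower), 20 (5.39% and 2.59%) and 12 (5.36% and 2.87%). The same held for chromosomes 16 (4.89% and 3.19%) and 7 (5.56% and 4.95%). With the cohort the higher genes still outnumbered the lower ones on each of them. The genes of chromosome X had a median span of 16924.5 bases and those of chromosome 18 one of 26222.

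SS vs. YSS, the comparison of METH takers with their yoked rats in the shock-sensitive arm, sets no SR or CT rat against another. Its p-values come from the same fit over all 30 libraries, so that the estimate of the spread was shared with SR vs. CT. At the unadjusted threshold SS vs. YSS called 675 genes (4.27% of those tested), 364 higher (2.3%) and 311 lower in SS rats (1.97%). Of the 1656 genes called in SR vs. CT, 92 were among them, which is 5.56% of the former and 13.6% of the latter list, and 54 of the 92 changed in the same direction (34 higher and 20 lower in the METH rats). The share of 5.56% lies near the background of 4.27%. Among the 12 genes with the smallest p-values in SR vs. CT, 3 passed the unadjusted threshold in SS vs. YSS, all with an adjusted p of 0.995. ENSRNOG00000060635 (log2 fold change 0.50, unadjusted p = 0.00212) and ENSRNOG00000013981 (0.11, unadjusted p = 0.0284) were higher in SS rats as in SR rats, and ENSRNOG00000014900 was lower in SS rats (-0.18, unadjusted p = 0.0184) and higher in SR rats.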

How the data were processed

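RNA of 30 rats was sequenced as paired-end libraries made with oligo(dT) beads. The submitters' processing notes name bcl2fastq 2.17, Trimmomatic 0.36, STAR 2.5.2b and featureCounts of Subread 1.5.2. Genome build, annotation release and strand setting are not given in the sources used here. The authors deposited raw read counts on 32552 Ensembl genes, 1 table per rat, without normalization. Groups and cohorts were taken from the titles. Replicates carry no number shared between SR and CT rats within a cohort, so that no pairing was made.

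Counts were fitted with edgeR 4.0.16 (R 4.3.3) by the quasi-likelihood test over all 30 libraries with TMM normalization, group as the only term and the filter filterByExpr at its defaults. The contrast SR - CT was tested and Benjamini-Hochberg adjusted over 15797 genes, and the fit was repeated with cohort as a covariate. CPM are TMM-normalized, and log2 CPM used a prior count of 2. Gene span and exon blocks come from the deposited coordinates. The depth, at most 0.206 CPM for 3 counts, limits low genes. Named genes were the 6 per direction with the smallest p and the 3 with the largest fold change (at least 10 counts in every SR and CT library) called in both fits, with mitochondrial genes called in both. Members and lists were chosen with earlier results of these data known. Symbol-based lists were not used here. DESeq2 1.42.0, Tukey's test on log2 CPM and other settings were alternatives. The code was tested on simulated data.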

Additional observations from a re-analysis of the deposited data

Results flagged for a closer look

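Each group's extreme rats were set against their nearest neighbour for 8 library measures and 22 named genes in SR and in CT rats. Of these 60 groups of values 2 held a rat far from the others, where chance gives about 3. In ENSRNOG00000007830, SR replicate XII-L05 had 50.7 CPM and the next highest SR rat 19.6 CPM. In ENSRNOG00000001289, CT replicate XII-R11, the only CT rat of cohort XII, had 19.1 CPM and the next highest CT rat 15.9 CPM.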

How the results depend on the processing

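The 1656 genes at the unadjusted threshold became 1079 with the cohort as a covariate, 874 when only the 14 SR and CT libraries were fitted with the cohort, and 302 with Tukey's test, whose p-values already allow for all pairs of groups. Leaving out 1 SR or CT library gave 1178 to 2179. The 72 genes at 1.7-fold became 156 within cohort XIII, 28 with only the 14 libraries (42 with the cohort), 29 with Tukey's test, 615 when every gene with 1 count or more was tested, 11 with at least 10 counts in every library, 141 at 1.5-fold and 39 at 2-fold, and 64 to 89 with a library left out. The 0 adjusted genes became 4 within cohort XIII, 13 with DESeq2 and 0 to 10 with a library left out. The cause was not tested except where fewer genes or libraries entered. Within cohort XIII, the SR minus CT differences in library measures were -0.0711% for mitochondrial counts (0.355% over all rats), -0.0375% for the 10 most counted genes (0.423%), 82 genes detected (-59.4) and 0.0155% for chromosome X (-0.0648%), each with the opposite sign, and -8.91 for PC2 and -0.0391 for long minus short genes, both no longer past the threshold. The 22 named genes kept their sign in all 240 values from 11 alternatives and in 308 fits without a library. They lost an unadjusted p under 0.05 in 12 of each, and ENSRNOG00000032882 had none to lose over all rats. The genes were chosen by their values in these same libraries, most of them by the fit with the cohort too. A kept sign is therefore no independent support. Low counts limit genes near 1 CPM. No paired analysis was possible because no replicate code is shared between SR and CT rats.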

Other observations

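In 3 neighbouring genes of chromosome 20, chosen after their values were seen, a single SR rat, XII-L07, stood apart from all other SR and CT rats. ENSRNOG00000062036 (from 3126829) had 35 counts in this rat and at most 2 in any other SR or CT rat. ENSRNOG00000060523 (from 3134704) had 92 counts, against at most 3 in the other SR and 2 in the CT rats, and ENSRNOG00000026051 (from 3135791) had 92, against at most 9 and 10. Among the 16 SS, YSR and YSS rats, 6, 7 and 7 had over 20 counts in these genes, with up to 71, 221 and 191 counts. The log2 fold changes in SR vs. CT were 2.47, 4.32 and 1.84, the largest of which had an unadjusted p of 0.05 (0.182 with the cohort) and rested on this rat. ENSRNOG00000026051 shares exon bases with another gene.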
